A study of Caenorhabditis elegans with 2 samples.

Results

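The col genes are the largest named family of collagens in Caenorhabditis elegans, and 156 of the 19973 protein-coding genes on the nuclear chromosomes carry a name that starts with col-. Members were taken by the spelling of the name alone from the Ensembl annotation of WBcel235, the sequence of build ce11, although the family was picked for description with earlier results of these data known. Chromatin immunoprecipitation with sequencing (ChIP-seq) had been run on whole L4 larvae of strain RW12203, in which CRISPR placed a TY1::EGFP::3xFLAG tag in the ctbp-1 gene on X, with an antibody against GFP. Animals were bleached, starved as L1 larvae and harvested at 48 hours. There were 2 biological replicates in 1 group, all carrying the tag, and no second condition, so every comparison below sets col genes against all protein-coding genes in the same lists. The data were 8 peak lists without read counts, so the depth is unknown. Whole animals were used, so the tissue in which CTBP-1 was recovered at a gene is not known, and no input or untagged track was used here.

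Cuticle collagens are short proteins built around runs of the Gly-X-Y triplet, in which glycine opens each triplet so that chains can wind into a triple helix. The hypodermis secretes them into the cuticle, and most are made in bursts that follow the moulting cycle, each burst building the cuticle of the next stage. Cysteines flanking the triplets link the chains, and enzymes of the secretory pathway fold and trim them before assembly. CTBP-1 is the worm member of the CtBP family of corepressors, which other proteins usually bring to DNA. Among the proteins encoded by the 156 genes the median length was 304 residues and the median number of Gly-X-Y triplets in runs of 3 or more was 51. The translation of 1 gene had no such run. Proteins were translated from the first annotated coding base, and the reading frames were not checked. The genes lay on every nuclear chromosome, with 41 on IV, 31 on V, 27 on X, 24 on II, 21 on I and 12 on III.

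Few col genes had a CTBP-1 peak at the promoter that passed the threshold. A summit of the series-level thresholded list, which keeps peaks with an irreproducible discovery rate (IDR) of 0.01 or less, lay between 1000 bp upstream and 250 bp downstream of a 5' end in 6 of 156 col genes (3.85%, 95% Wilson interval 1.77 to 8.14%), against 7.12% of all genes. In the conservative list the counts were 4 of 156 col genes (2.56%) and 6.7% of all genes. The list of replicate 1 alone gave 1 of 156 (0.641%) against 3.78%, and that of replicate 2 alone gave 3 of 156 (1.92%) against 4.52%. The share at col genes was below that at all genes in all 4 lists. In the series-level list and that of replicate 2 (interval 0.656 to 5.5%) the interval at col genes includes the share of all genes. Every annotated 5' end of a gene gave a window. The upper quartile of 5' ends per gene was 1 in col genes and 2 in all genes. The part of this difference in the lower col share was not tested. The signal of the strongest promoter peak, the authors' own value for each peak, had a median of 63.9 over the 6 col genes and 94.5 over the 1422 genes with a promoter summit.

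Upstream of the promoter window the share at col genes was close to that at all genes, and its interval included it. A summit whose nearest 5' end belonged to a col gene and which lay 1 to 5 kb upstream of it was found for 5 of 156 col genes (3.21%, interval 1.38 to 7.28%), against 2.89% of all genes. The median signal there was 127 over the 5 col genes and 93.4 over 577 genes. Inside the gene the picture differed by compartment. Introns outside the gene's promoter windows held a summit in 3 of 156 col genes (1.92%), against 2.39% of all genes. Exons outside those windows held one in 13 of 156 col genes (8.33%, interval 4.93 to 13.7%), against 0.986% of all genes, a pattern noticed after the data had been seen. In all, 24 col genes had a summit in at least 1 of these 4 places, with 31 summits between them.

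**Figure D1:**
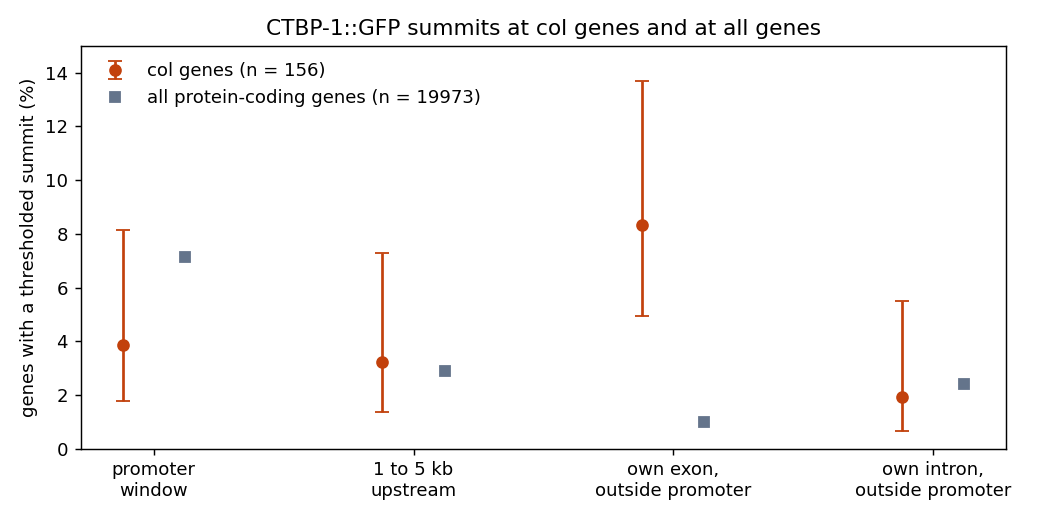
Share of genes with a thresholded summit (y axis, %) in each of 4 places relative to the gene, for the 156 col genes (circles, bars are 95% Wilson intervals over genes) and for all 19973 protein-coding genes (squares). The col share in exons, 8.33%, and its interval lie above the 0.986% of all genes, while the other 3 intervals include the share of all genes.

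The strongest promoter peak of a col gene was at col-185, which encodes a predicted cuticle collagen on X. Its summit lay 880 bp upstream of the 5' end, with a signal of 57.96 in replicate 1 and 79.49 in replicate 2, and 134.15 in the series-level list. It was the only promoter peak of a col gene that passed the threshold in both replicates. The summit fell inside a tRNA gene. A second peak lay 3497 bp upstream of col-185, between protein-coding genes, with 78.72 in replicate 1, 42.54 in replicate 2 and 128.71 in the series-level list. It passed in replicate 1 and missed the threshold in replicate 2. The 2 windows of 151 bp around these summits are shown because they contrast a summit on a tRNA gene, whose bases are in capitals in the first, with one that has none within 200 bp.
col-185, chrX:13511902-13512052 (+ strand): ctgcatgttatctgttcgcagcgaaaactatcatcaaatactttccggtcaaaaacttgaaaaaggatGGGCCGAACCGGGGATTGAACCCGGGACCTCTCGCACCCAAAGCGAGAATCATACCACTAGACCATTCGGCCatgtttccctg
col-185, chrX:13514519-13514669 (+ strand): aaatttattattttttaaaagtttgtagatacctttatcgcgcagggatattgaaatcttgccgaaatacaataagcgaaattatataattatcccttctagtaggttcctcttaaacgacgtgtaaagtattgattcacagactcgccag

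At col-71 the promoter summit lay 248 bp upstream, with signals of 38.03 in replicate 1, 48.15 in replicate 2 and 85.04 in the series-level list. It missed the threshold in each replicate alone. The upstream region is shared with the divergent gene Y49F6B.2, the 5' ends are 398 bp apart, and the summit lies nearer to Y49F6B.2, at 150 bp. The peak therefore cannot be assigned to either gene from its position.

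The remaining 4 promoter peaks were weaker and lay close to the threshold. At col-138 the summit lay 4 bp upstream of the 5' end, inside an intron of C52D10.3, and the signal was 35.41 in replicate 1, 36.70 in replicate 2 and 59.72 in the series-level list. At col-139 it lay 169 bp downstream, in the gene's own exon, with 16.38 in replicate 1, 42.63 in replicate 2 and 58.07 in the series-level list. Only replicate 2 placed the col-139 peak past its threshold, and the divergent neighbour F41F3.1 begins 584 bp away. At col-52 the summit lay 893 bp upstream of the nearer of 2 annotated 5' ends, within an intron of the longer transcript, and the signal was 27.93 in replicate 1, 30.72 in replicate 2 and 65.71 in the series-level list. Of the 36-mers in that 151 bp window 83.6% had another copy in the genome, and the commonest occurred 234 times, and how reads from repeated sequence were placed is not stated. At col-63 the summit lay 686 bp upstream, in an exon of ceh-8, with 25.98 in replicate 1, 29.27 in replicate 2 and 62.11 in the series-level list. The peaks at col-52, col-63 and col-138 passed in neither replicate alone. The windows at col-71 and col-138, both from the + strand, are shown as the promoter summits closest to a 5' end upstream, and the capitals in the second mark an AGGTCA match.
col-71, chrII:3502743-3502893 (+ strand): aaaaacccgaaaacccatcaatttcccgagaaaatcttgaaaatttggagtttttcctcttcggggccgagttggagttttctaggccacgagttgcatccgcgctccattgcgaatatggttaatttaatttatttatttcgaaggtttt
col-138, chrIV:17183658-17183808 (+ strand): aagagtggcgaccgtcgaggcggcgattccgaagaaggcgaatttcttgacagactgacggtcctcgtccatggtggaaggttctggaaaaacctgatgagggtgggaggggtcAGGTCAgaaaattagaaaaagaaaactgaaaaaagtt

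**Figure D2:**
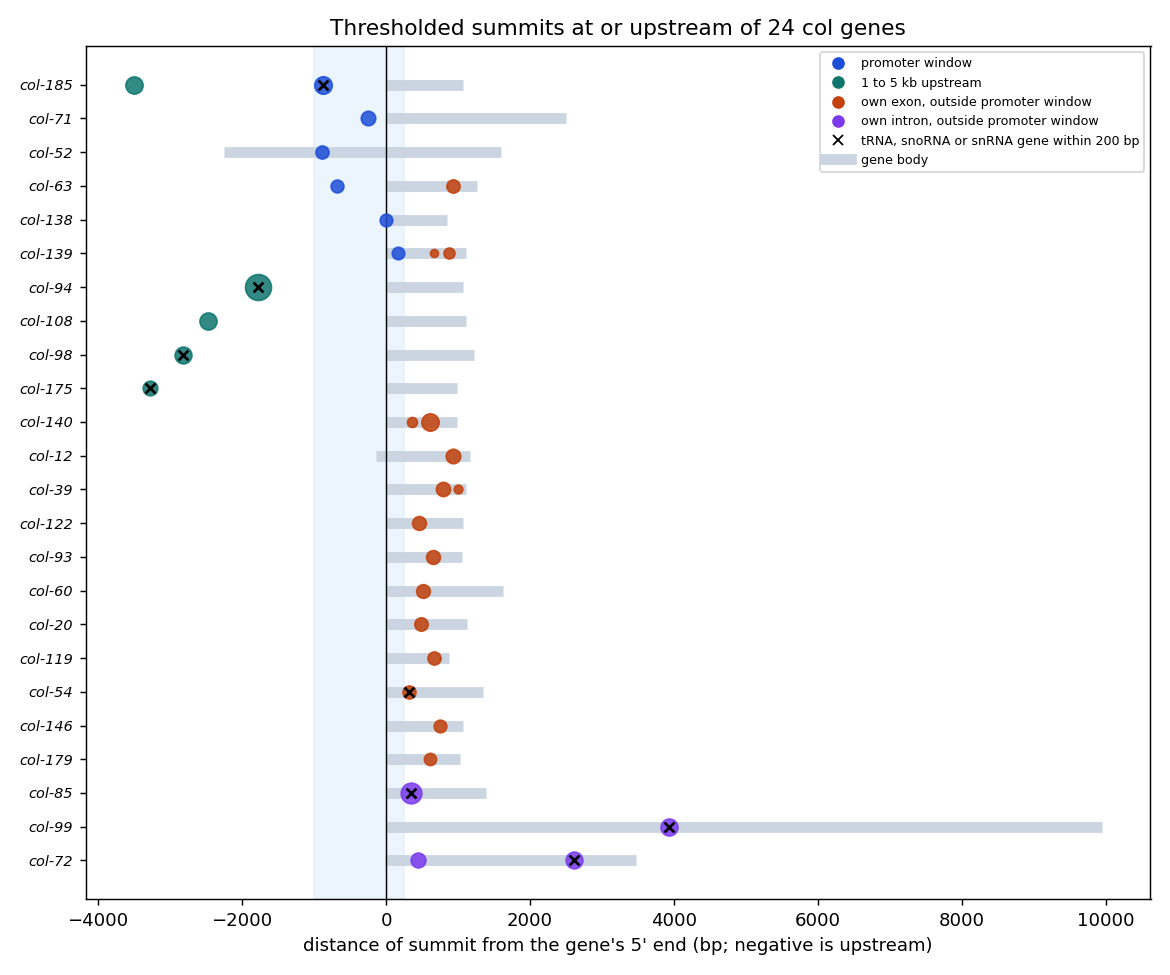
Position of each of the 31 thresholded summits relative to a 5' end of its col gene (x axis, bp, negative is upstream), 1 gene a row, with the gene body in grey and the promoter window shaded. Colour gives the place, circle area rises with the series-level signal, and crosses mark a small RNA gene (tRNA, snoRNA, snRNA) at most 200 bp away, seen at 3 of the 5 far summits and at 1 of the 16 exon summits.

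The far peaks had the higher median signal, and 3 of the 5 lay at small RNA genes. The largest signal near any col gene was 1783 bp upstream of col-94, with 135.33 in replicate 1, 167.16 in replicate 2 and 320.96 in the series-level list, where it ranked 64 of 2927 peaks. It passed in both replicates. The summit lies in an intron of dhc-4, a dynein heavy chain gene, and 23 bp from the snRNA gene R07E5.16. At col-98 the summit lay 2824 bp upstream and 6 bp from a tRNA gene, with 54.40 in replicate 1, 68.01 in replicate 2 and 122.31 in the series-level list. At col-175 it lay 3277 bp upstream, in an intron of lgc-4 and 14 bp from a tRNA gene, with 45.71 in replicate 1, 36.30 in replicate 2 and 87.16 in the series-level list. The col-98 peak passed in replicate 2 only and the col-175 peak in neither.

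The far peak of col-108 had no small RNA gene nearby. Its summit lay 2478 bp upstream, between protein-coding genes, with 62.33 in replicate 1, 68.02 in replicate 2 and 126.55 in the series-level list, and it passed in both replicates. Together with the far summit of col-185 it was 1 of 2 far summits that remained when peaks near tRNA, snoRNA or snRNA genes were left out. A gene of these kinds lay within 200 bp of 3 of 5 far summits of col genes, against 15% of the 688 summits placed the same way genome-wide. It was so for 1 of 6 promoter summits of col genes, against 7.98% of the summits in any promoter window. Whether these peaks concern the collagen gene or the small RNA gene cannot be told apart from position. The windows of col-94, with the bases of the snRNA gene in capitals, and of col-108 are shown because both passed in both replicates.
col-94, chrIII:10989581-10989731 (+ strand): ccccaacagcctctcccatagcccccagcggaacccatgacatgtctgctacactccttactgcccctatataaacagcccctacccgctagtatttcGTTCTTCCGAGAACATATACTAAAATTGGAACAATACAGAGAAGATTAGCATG
col-108, chrIV:1766035-1766185 (+ strand): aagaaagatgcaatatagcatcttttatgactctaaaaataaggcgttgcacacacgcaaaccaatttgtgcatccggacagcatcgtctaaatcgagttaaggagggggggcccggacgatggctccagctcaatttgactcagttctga

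The intron summits were in col-85, col-99 and col-72, which were named after their values were seen, and 3 of the 4 lay at tRNA genes. Over all 2911 nuclear summits, 14.2% had a tRNA, snRNA or snoRNA gene at most 200 bp away. At col-85 the summit lay inside a tRNA gene in the intron, with 108.84 in replicate 1, 91.93 in replicate 2 and 195.94 in the series-level list. At col-99, which encodes a transmembrane collagen rather than a cuticle component, the summit also lay inside a tRNA gene, with 62.52 in replicate 1, 61.35 in replicate 2 and 125.61 in the series-level list. At col-72 1 summit lay 11 bp from a tRNA gene, with 58.28 in replicate 1 and 58.07 in replicate 2, and another had no small RNA gene within 200 bp, with 29.41 in replicate 1 and 65.04 in replicate 2. The 3 intron peaks at tRNA genes passed in both replicates, and the other passed in replicate 2 only.

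In the exons, 16 summits fell in 13 col genes, which were named after their values were seen. The strongest was in col-140, 609 bp downstream of the 5' end, with signals of 66.44 in replicate 1, 54.68 in replicate 2 and 131.45 in the series-level list. In col-12 the summit lay 934 bp downstream, with 45.78 in replicate 1, 43.73 in replicate 2 and 85.39 in the series-level list. These 2 genes were the only ones of the 13 whose exon peak passed the threshold in both replicates. In col-93 the signal was 42.13 in replicate 1, where it passed, 28.12 in replicate 2 and 76.22 in the series-level list. In col-119 it was 20.26 in replicate 1, 48.02 in replicate 2, where it passed, and 66.25 in the series-level list. The other 9 genes were col-39, col-122, col-60, col-20, col-63, col-54, col-146, col-179 and col-139. Their strongest exon peaks ran from 25.87 to 32.17 in replicate 1, from 15.61 to 48.69 in replicate 2 and from 40.41 to 82.02 in the series-level list, and none passed in a single replicate. A weaker second summit lay in col-140, col-39 and col-139. Some exon summits also lay within introns of other genes: dph-2 at col-39, lron-14 at col-122, dhc-4 at col-93 and pdzd-8 at col-119. At col-146 the nearest 5' end was that of T06E4.5, 553 bp away.

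The exon result rests mainly on peaks that passed only when the replicates were combined, and it was seen in each replicate at a smaller count. The thresholded list of replicate 1 had an exon summit in 4 of 156 col genes (2.56%), against 0.275% of all genes. In the list of replicate 2 it was 5 of 156 (3.21%), against 0.33%. The 4 genes of replicate 1 were col-140, col-12, col-93 and col-19, and the 5 of replicate 2 were col-140, col-12, col-119, col-129 and col-71. The median series-level signal of the 16 exon summits was 67, against 85.8 over all 2911 nuclear summits.

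**Figure D3:**
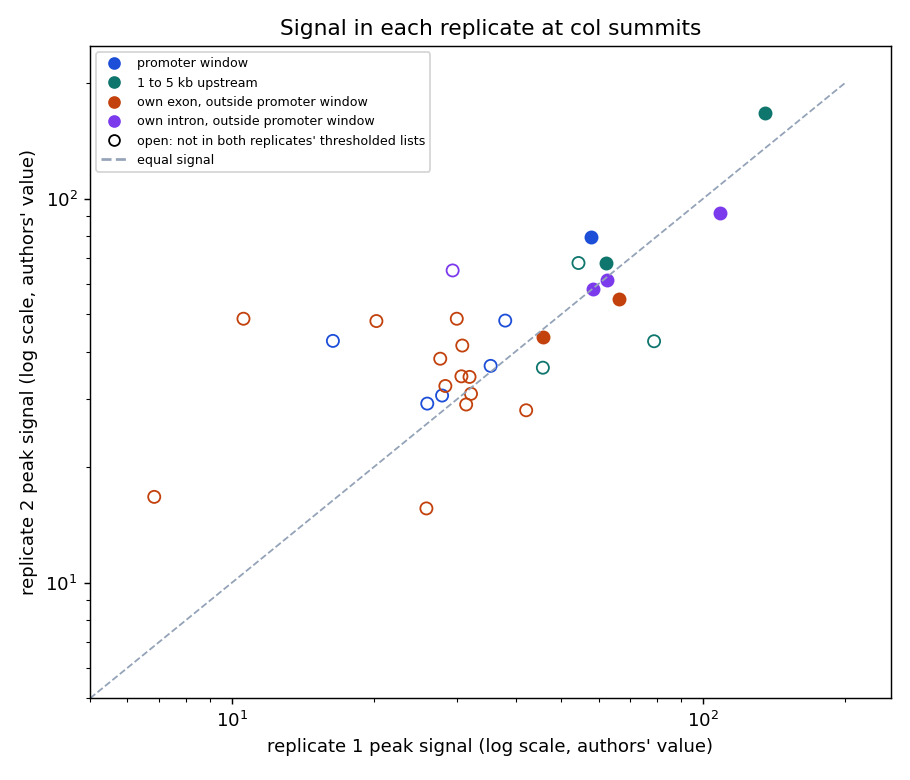
Signal of the matched peak in replicate 2 (y axis) against replicate 1 (x axis), both on log scales in the authors' units, at the 30 summits of col genes with a ranked peak in both replicates. Filled circles passed the threshold in both replicates, and the dashed line marks equal signal. The far and intron peaks at small RNA genes include the highest points, col-94 and col-85, and 13 of the 15 plotted exon peaks are open circles. At col-39 the same replicate 2 peak is matched to both summits.

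Most exon summits sat on triplet-coding sequence. Such sequence is a large part of a col gene, with medians of 51 triplets and 304 residues per protein. Glycine codons were not counted in col exons away from summits, so no share is given to read these counts against. Of the 13 exon windows whose codons were counted, 12 held 11 to 20 in-frame glycine codons. The other, at the second summit of col-39, held 1 and ran past the end of the coding sequence. Codons were not counted in the windows of col-54, col-60 and col-63, which had a GC content of 52.32, 51.66 and 56.29%. The 151 bp windows around all 16 exon summits had a median GC content of 62.9%, against 46.4% for all nuclear summits and 47.7% for the 11 promoter and far summits of col genes. Exons of col genes outside all promoter windows held 14 summits in 115490 bp, or 121.22 per megabase, against 178 in 21.25 megabases of all such exons, or 8.38 per megabase. Col exons were 0.54% of that sequence and held 7.87% of its summits, and their GC content was 53.99%, against 41.32% for all such exons. Of these windows, 4 are printed on the coding strand with every in-frame glycine codon in capitals. They show the repeat in the 2 genes that passed in both replicates, in col-119 and in col-179.
col-140, chrV:5836150-5836300 (- strand): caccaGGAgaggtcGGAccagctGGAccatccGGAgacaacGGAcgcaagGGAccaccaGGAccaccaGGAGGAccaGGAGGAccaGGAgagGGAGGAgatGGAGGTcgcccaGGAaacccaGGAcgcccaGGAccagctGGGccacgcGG
col-12, chrV:10424048-10424198 (- strand): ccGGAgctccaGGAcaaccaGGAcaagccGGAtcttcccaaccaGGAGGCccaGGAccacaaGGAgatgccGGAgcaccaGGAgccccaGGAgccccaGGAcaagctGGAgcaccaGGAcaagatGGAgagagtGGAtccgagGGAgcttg
col-119, chrIV:8979058-8979208 (- strand): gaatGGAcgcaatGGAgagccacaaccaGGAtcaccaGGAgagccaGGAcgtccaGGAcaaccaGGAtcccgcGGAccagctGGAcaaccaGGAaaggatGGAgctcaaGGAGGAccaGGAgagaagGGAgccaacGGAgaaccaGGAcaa
col-179, chrX:11201998-11202148 (+ strand): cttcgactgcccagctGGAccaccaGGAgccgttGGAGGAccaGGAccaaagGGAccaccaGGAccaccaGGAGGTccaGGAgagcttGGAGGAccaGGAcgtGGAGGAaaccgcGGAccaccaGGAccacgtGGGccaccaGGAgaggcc

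The col-140 window held 20 glycine codons, the col-179 window 19, and the col-12 and col-119 windows 17 each. These runs lie in the collagen domain and recur, with changes, across the family. In col-179 86.2% of the 36-mers in the window had another copy in the genome, and in col-12 64.7%, whereas in col-140 and col-119 none had. Leaving out the summits whose window held any repeated 36-mer left 9 of the 13 genes. Of the 13 proteins, 2 were at least 95% identical to another col protein, against 27 of all 156. The median identity to the most similar col protein was 73% for the 13 and 57.7% for the col genes without an exon summit.

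The exon result was also set beside base composition. The median GC content of whole exons was 54.7% in the 13 genes, 52.5% in the 143 col genes without an exon summit and 40.2% in the 19817 other protein-coding genes. Among genes whose exons were 55% GC or more, 6 of 49 col genes (12.2%) had an exon summit, against 2 of 73 other genes (2.74%). Between 50 and 55% GC it was 4 of 64 col genes (6.25%) against 7 of 508 (1.38%), and between 45 and 50% it was 3 of 29 (10.3%) against 39 of 2347 (1.66%). Between 40 and 45% it was 0 of 13 col genes against 84 of 7550 (1.11%), and under 40% it was 0 of 1 against 52 of 9339 (0.557%), so these classes hold too few col genes to compare. The col share was higher in each of the 3 upper classes, and col genes had the longer exons there only in the upper 2, with a median of 991 bp against 411 bp in the highest class and 1103 bp against 1211 bp between 45 and 50%. The part of base composition in the exon result was not tested.

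**Figure D4:**
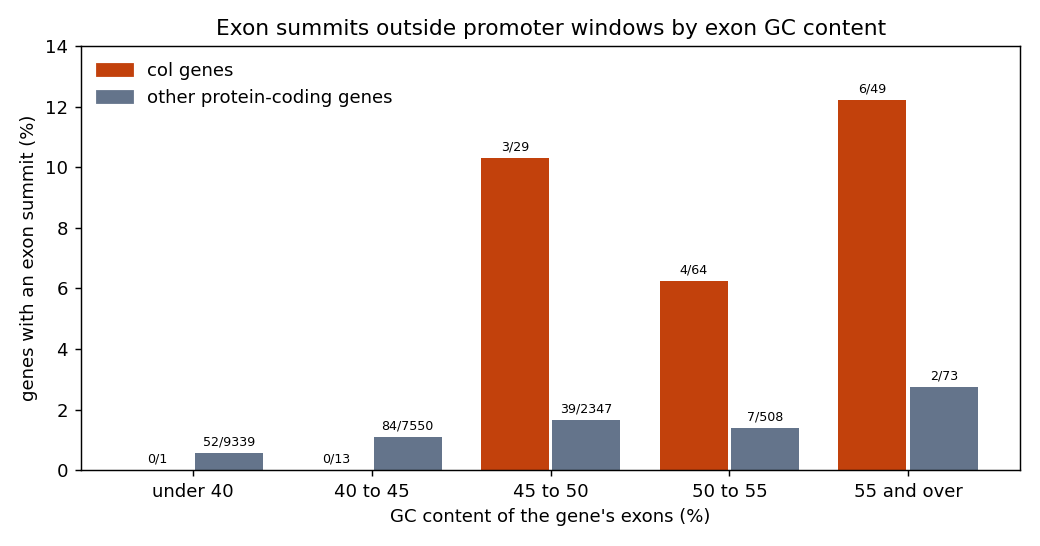
Share of genes with an exon summit outside their promoter windows (y axis, %) by the GC content of the gene's exons (x axis, classes in %), for col genes (left bars) and other protein-coding genes (right bars), with the counts above each bar. From 45% GC upward the col bars, at 10.3, 6.25 and 12.2%, are higher than those of other genes, at 1.66, 1.38 and 2.74%.

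Weak peaks below the threshold were widespread at col promoters, as they were at all promoters, and are not evidence of binding. The ranked list keeps peaks at any IDR, and its 85313 peaks have a summed width of 31001850 bp. In that list 104 of 156 col genes (66.7%, interval 58.9 to 73.6%) had a summit in the promoter window, against 61.8% of all genes. With 0 for genes without one, the median strongest signal was 17.6 over col genes and 16.5 over all genes. The strongest 10% of col genes began at 42.6 and the strongest 10% of all genes at 52. A ranked peak in both replicates was found in 46 of 156 col promoters (29.5%), against 30.9% of all promoters.

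Among col promoters without a summit in the series-level thresholded list, the 5 strongest ranked peaks were those of col-38, col-111, col-20, col-129 and col-144. At col-38 the signal was 21.00 in replicate 1, 35.41 in replicate 2 and 62.28 in the series-level list, with the summit 453 bp upstream and nearer to the divergent ribosomal protein gene rpl-5. At col-111 it was 45.04 in replicate 1 and 58.73 in the series-level list, with no ranked peak within 150 bp in replicate 2, although one of 33.78 lay elsewhere in its promoter window. At col-20 it was 35.18 in replicate 1, 17.14 in replicate 2 and 57.36 in the series-level list. At col-129 it was 24.01 in replicate 1, 35.33 in replicate 2 and 55.16 in the series-level list. At col-144 it was 40.77 in replicate 2 and 54.19 in the series-level list, with no ranked peak within 150 bp in replicate 1, although one of 33.02 lay elsewhere in its promoter window. The weakest thresholded promoter peak of a col gene, at col-139, had 58.07, which col-38 and col-111 exceeded and the other 3 did not reach. Each of the 5 had an IDR above 0.01 in the series-level ranked list. However, col-144 had a promoter summit in the conservative list, and col-129 had one in the thresholded list of replicate 2.

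Of the col genes arranged head to head with another gene, col-71 and col-139 had a promoter summit. A divergent partner lay within 1000 bp of 19 col genes, of which 2 (10.5%) had a promoter summit, against 422 of 3531 such genes overall (12%). Of the 137 col genes without one, 4 (2.92%) had a promoter summit, against 6.08% of all such genes. In 3 cases both divergent genes were col genes: col-50 with col-51, col-117 with col-3 and col-183 with col-184, at gaps of 1295, 588 and 1691 bp. None of the 3 shared regions held a thresholded summit, and the strongest ranked peaks there had signals of 16.89 between col-117 and col-3 and 18.86 between col-183 and col-184. The proteins of col-117 and col-3 were identical. Their DNA sequences were not compared, so whether reads within the 2 genes could be placed apart is not known. In the series-level list none of the 50 col genes with another col gene within 5 kb had a promoter summit. Of the 106 without, 6 did (5.66%), against 7.12% of all genes. Exon summits were found in 6 of the 50 (12%) and 7 of the 106 (6.6%), against 0.986% of all genes. The promoter split depends on the list. The conservative list had a promoter summit at col-144, 1350 bp from another col gene. At an IDR of 0.05 or less, ranked peaks lay in the promoters of col-20, col-73, col-92 and col-95, each within 5 kb of another col gene.

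Other genes of the cuticle were counted the same way from lists chosen by function, with earlier results of these data known. The shares in these lists are therefore descriptive only. Of the cuticle collagens with dpy, sqt, rol, bli or lon names, 0 of 19 had a promoter summit, which allows a share of up to 15.8%, and none had an exon summit. Exon summits in the other lists were confined to lin-29, a zinc finger regulator of the larva-to-adult switch, and cut-2, a cuticlin, both named after their values were seen. Of the 3 basement membrane collagens none had a promoter summit, and nor did any of 22 other cuticle structure genes, which allows up to 13.6%. Of the 18 genes for collagen processing and cuticle assembly 3 did (16.7%, interval 5.84 to 39.2%), read against 7.12% of all genes. At pdi-2, a protein disulfide isomerase that is also a subunit of the collagen prolyl 4-hydroxylase, the signal was 88.67 in replicate 1, 92.88 in replicate 2 and 181.61 in the series-level list. At pdi-3, another disulfide isomerase, it was 53.69 in replicate 1, 60.47 in replicate 2 and 115.45 in the series-level list, with the summit nearer to ubql-1. At dpy-11, a membrane thioredoxin needed for normal body shape, the stronger of 2 peaks had 38.80 in replicate 1, 37.15 in replicate 2 and 74.13 in the series-level list.

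Regulators of moulting and of cuticle timing, a list chosen under the same limit, had a promoter summit in 5 of 23 (21.7%, interval 9.66 to 41.9%), against 7.12% of all genes. The strongest was at myrf-1, a membrane-bound transcription factor needed for larval progression, with 77.27 in replicate 1, 114.06 in replicate 2 and 194.40 in the series-level list. At lin-28, an RNA-binding protein that times larval fates, the stronger peak had 71.90 in replicate 1, 78.09 in replicate 2 and 148.13 in the series-level list. At myrf-2, the paralogue of myrf-1, it was 71.63 in replicate 1, 67.07 in replicate 2 and 122.20 in the series-level list. All 3 passed in both replicates, as did pdi-2 and pdi-3, which only col-185 did among col promoters. Of 11 genes of the TGF-beta pathway that sets body size 1 had a promoter summit (9.09%, interval 1.62 to 37.7%), against 7.12% of all genes. It was sma-9, a zinc finger protein of the Schnurri family, with 30.29 in replicate 1, 33.15 in replicate 2 and 53.93 in the series-level list. Stronger peaks lay farther upstream of sma-9 and passed in both replicates. The one at 3007 bp had 99.63 in replicate 1, 121.16 in replicate 2 and 221.95 in the series-level list, and the one at 1853 bp had 74.33 in replicate 1, 79.41 in replicate 2 and 164.06 in the series-level list.

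Sequence motifs were counted at the 11 promoter and far summits of col genes, too few for a share to be read against the background. A set of 5 motifs was searched on both strands within 75 bp of the summit, and none of the motifs contains another. GAGAGA was present at 1 of 11 col summits, at col-98, against 31.3% of all nuclear summits. AGGTCA was present at 1, at col-138, against 4.26%. The E-box CACGTG was at 0, against 4.6%. The motif CACCTG was at 0, against 3.06%, and the GATA motif TGATAA was at 0, against 6.66%. In windows from 250 bp before to 50 bp after the 5' end, GAGAGA occurred in 26.9% of col promoters and 21.8% of all promoters, AGGTCA in 13.5% and 8.23%, TGATAA in 29.5% and 30.2%, CACCTG in 8.97% and 8.48%, and CACGTG in 1.28% and 5.83%. These are matches of letters in those windows and not sites of binding.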

How the data were processed

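The deposited data were narrowPeak lists on ce11, per the labels. The signal of each peak is the authors' own value, deposited with the peak, and its scale is not stated. In the deposited ranked lists each peak also has a −log10 IDR, where 2 is the threshold of 0.01. Neither aligner nor peak caller is named in the sources used here. The p-value column was not used, nor were 16 columns of single inputs in the series-level ranked lists.

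Summits, counted from 1, were set against the 29304 distinct 5' ends of 19973 protein-coding genes with Python 3.11.15 and numpy 2.4.6. No peak ran past a chromosome end of that build. Replicate signals are those of the strongest ranked peak with its summit within 150 bp. The placing of summits was tested on simulated data. Intervals are 95% Wilson intervals over genes, which cover counting error only and treat genes as independent. No significance test was run, since there was 1 group. A count of 0 was given the limit of 3 genes.

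The genes named are those with a promoter or far summit, the 5 next strongest in the ranked list, up to 3 of each other list, and the partner across a shared upstream region. Some further genes were named after their values were seen. The members and lists were chosen with earlier results of these data known. Names in the lists not found in the annotation were left out. Sequences are from the RefSeq WBcel235 assembly, the same build. Alternatives changed the peak list, left out a replicate, or changed windows and 5' ends.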

Additional observations from a re-analysis of the deposited data

How the results depend on the processing

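Of 71 alternatives over 12 results, 46 left the value within 1.5 times of a count, or within the spread between replicates for the median signal, and 25 did not. Of the 71, 13 (among them every one for exon summits) were chosen after seeing the data. The count of col genes with a promoter summit, 6 as reported, was 1 to 3 without each replicate, 1 in the upper 0.5 of the list by signal, 2 in a window of 500 bp upstream to 100 bp downstream, 15 in one of 2000 bp upstream to 500 bp downstream, and 12 with ranked peaks at an IDR of 0.05. The median signal of their strongest peaks, 63.9 as reported, was 72.38 in the conservative list and in the narrower window. It was 76.22 in the wider window. In the upper 0.5 it was 134.15, from col-185 alone, and keeping only stronger peaks can only raise it. Without replicate 1 it was 42.63, and without replicate 2 it was 57.96, again from col-185 alone. The replicate lists had lower signals (median over all peaks 62.35 in replicate 1, 60.20 in replicate 2) than the series-level list (85.98). The values without a replicate are therefore not comparable with 63.9. The count at 1 to 5 kb upstream, 5 as reported, was 3 without either replicate, 2 without peaks at small RNA genes, 3 at 1 to 3 kb, 10 when summits went to the nearest 5' end downstream of them and 8 at an IDR of 0.05. The ranked count, 104 as reported, was 64 to 76 without each replicate. The count with an exon summit, 13 as reported, was 4 to 5 without each replicate and 1 in the upper 0.5. It stayed between 9 and 19 under the other alternatives. Within 150 bp of the summits GAGAGA was at 4, TGATAA at 1 and AGGTCA at 2. The count was 0 for the other cuticle collagens in each alternative run, and 2 to 4 for the processing genes. Shares over all genes were not recomputed for the changed windows, the changed 5' ends, the upper 0.5 or an IDR of 0.05. Whether the comparison with all genes held under those settings is therefore not known. The wider promoter window took in exon or intron summits already counted apart, at col-20, col-54, col-72, col-85, col-122 and col-140. In it col-80 and col-92 took exon summits of col-39 and col-93, and col-94 took its own far summit. When summits went to the nearest 5' end downstream, col-13, col-17, col-80 and col-92 took exon summits of col-12, col-20, col-39 and col-93. The causes of the other shifts were not tested.

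No paired analysis was possible because there was 1 group. Depth is unknown, and a peak that misses the threshold is not evidence that CTBP-1 was absent.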

Other observations

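The median distance from a 5' end to the nearest thresholded summit was 14879 bp for the 156 col genes and 17673 bp for all 19973 genes. Some strong peaks near col genes fell outside the places counted in the report. The strongest of those within 5 kb of a col gene lay 1063 bp downstream of a 5' end of col-181, beyond the gene and at a tRNA gene, with a series-level signal of 293.03. A peak of 163.22 lay 4036 bp upstream of col-109, but 192 bp from the 5' end of cmk-1, a calcium/calmodulin-dependent kinase gene.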
